A study of Mus musculus with 4 samples.

Results

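The genes of retinoic acid handling followed here through the developing mouse ovary were Aldh1a1, Aldh1a2, Aldh1a3, Cyp26b1, Crabp1, Crabp2, Stra6, Rarg and Rarb, which are 9 of the 19321 genes measured. They were chosen by name for their roles in making, taking up, breaking down, binding and sensing retinoic acid. Earlier results of these data were known when they were chosen. Gonads were taken from C57BL/6 XX embryos on 4 embryonic days, the first being E11.5 and the last E14.5, the window in which female germ cells enter meiosis, and were digested with TrypLE Express and measured cell by cell with droplet RNA sequencing, using the 10x Chromium 3′ kit, version 2. There was 1 library per stage, so library and stage cannot be told apart, no difference between stages was tested, and how many embryos entered each library is not given in the sources used here. The 4 groups share the strain, the tissue and the sex label, and no gene was altered and no agent was given according to the labels.

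Retinoic acid is made from retinol (vitamin A) in a pair of steps, the last of which, from retinal to the acid, is carried out by the retinal dehydrogenases ALDH1A1, ALDH1A2 and ALDH1A3. Enzymes of the CYP26 family oxidise the acid and clear it, CRABP proteins carry it inside the cell, STRA6 is a membrane transporter for retinol, and the nuclear receptors RARA, RARB and RARG switch on target genes when they bind it. In the fetal ovary, retinoic acid signalling is known for its link to Stra8, a gene of meiotic entry in germ cells, and CYP26B1 is best known as the enzyme that keeps retinoic acid low in the fetal testis.

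The receptors recognise a direct repeat of a short half-site, and the best known example lies in the promoter of Rarb itself. To show what that element looks like, the promoters of the 7 of 9 members in the RefSeq promoter table (12 promoters, each 250 bases before to 50 bases after a start, GRCm38.p6) were searched on both strands for 2 half-sites in direct repeat, each being the letters AGGTCA or else the letters GGGTCA or else the letters AGTTCA or else the letters GGTTCA, with 5 bases between them. This spacing was found in 32 of 32851 promoters (0.0974%), Rarb was the member among them, and among the 35 of 45 other pathway genes in the table it was found in Cyp26a1, a close relative of Cyp26b1 that also clears retinoic acid. The 100 bases before each start are printed 5′ to 3′ on the strand of the gene with the repeat in capitals, for Rarb on chromosome 14 (chr14:16575477-16575576, minus strand, repeat 53 to 37 bases before the start) and for Cyp26a1 on chromosome 19 (chr19:37697708-37697807, plus strand, repeat read on the opposite strand, 32 to 16 bases before the start).
Rarb: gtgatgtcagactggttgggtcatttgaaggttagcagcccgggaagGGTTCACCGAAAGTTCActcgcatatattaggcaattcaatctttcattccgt
Cyp26a1: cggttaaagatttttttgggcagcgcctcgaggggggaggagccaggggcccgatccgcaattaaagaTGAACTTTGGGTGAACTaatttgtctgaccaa
With 1 base between the half-sites the repeat was in 73 promoters (0.222%), Bco1 of the pathway among them, and with 2 bases in 88 (0.268%), with no member or pathway gene among them. A match is a description of letters and not evidence of binding.

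Cells were sorted into 5 classes by the detection of marker genes that are not among the 9. Germ cells had at least 3 of Dazl, Ddx4, Dnd1, Mael, Dppa5a and Mov10l1, and supporting cells, the lineage that gives granulosa cells, had at least 3 of Fst, Wnt4, Wnt6, Irx3 and Runx1. Surface epithelium had Upk3b with Krt19 or Krt7, interstitial cells had Col1a1 with Tcf21, and endothelial cells had Pecam1 with Cdh5. In stage order there were 228, 606, 722 and 2299 germ cells, 2154, 2142, 1724 and 660 supporting cells, 607, 561, 394 and 344 surface epithelial cells, 300, 210, 594 and 202 interstitial cells, and 133, 174, 86 and 36 endothelial cells. Cells that met the rule of more than 1 class, 236, 416, 513 and 614 in stage order, were left out of all 5. Check markers outside the rule were summed for each class and stood highest in their own class in 20 of 20 cases, although Foxl2, a defining gene of granulosa cells, was at 0.125 to 0.342 CPM (counts per 1000000) in the supporting class.

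The libraries held 4787 to 4916 cells and 69458291 to 80377418 UMIs (unique molecular identifiers, 1 for each captured transcript), and 175 cell barcodes occurred in more than 1 library. In the E14.5 library, UMIs of the Y-linked genes Ddx3y, Eif2s3y, Kdm5d or Uty were found in 935 cells (19.5%), against 0 cells of the other 3 libraries. Xist, the RNA of the inactive X chromosome, had a UMI in 100% of the supporting, surface epithelial, interstitial and endothelial cells of that library, those with a Y-linked UMI included, and in 38.4% of its germ cells. The first measure goes against the XX label and the second goes with it, and where the Y-linked UMIs came from was not tested. Cells with a Y-linked UMI were 403 of the 2299 germ cells and 157 of the 660 supporting cells of that stage, and values without them are given beside the results they touch. Germ cells were deeper than the other classes, with a median of 31050 UMIs at E11.5 and 15389 at E14.5, against 13876 and 9589.5 in supporting cells. Levels are therefore given as UMIs per 1000000 of the summed UMIs of a class in a library (CPM, with exact Poisson 95% intervals in parentheses), and shares of cells with a UMI after each cell was thinned to 5000 UMIs (exact Clopper-Pearson intervals). All intervals cover counting error only.

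**Figure D1:**
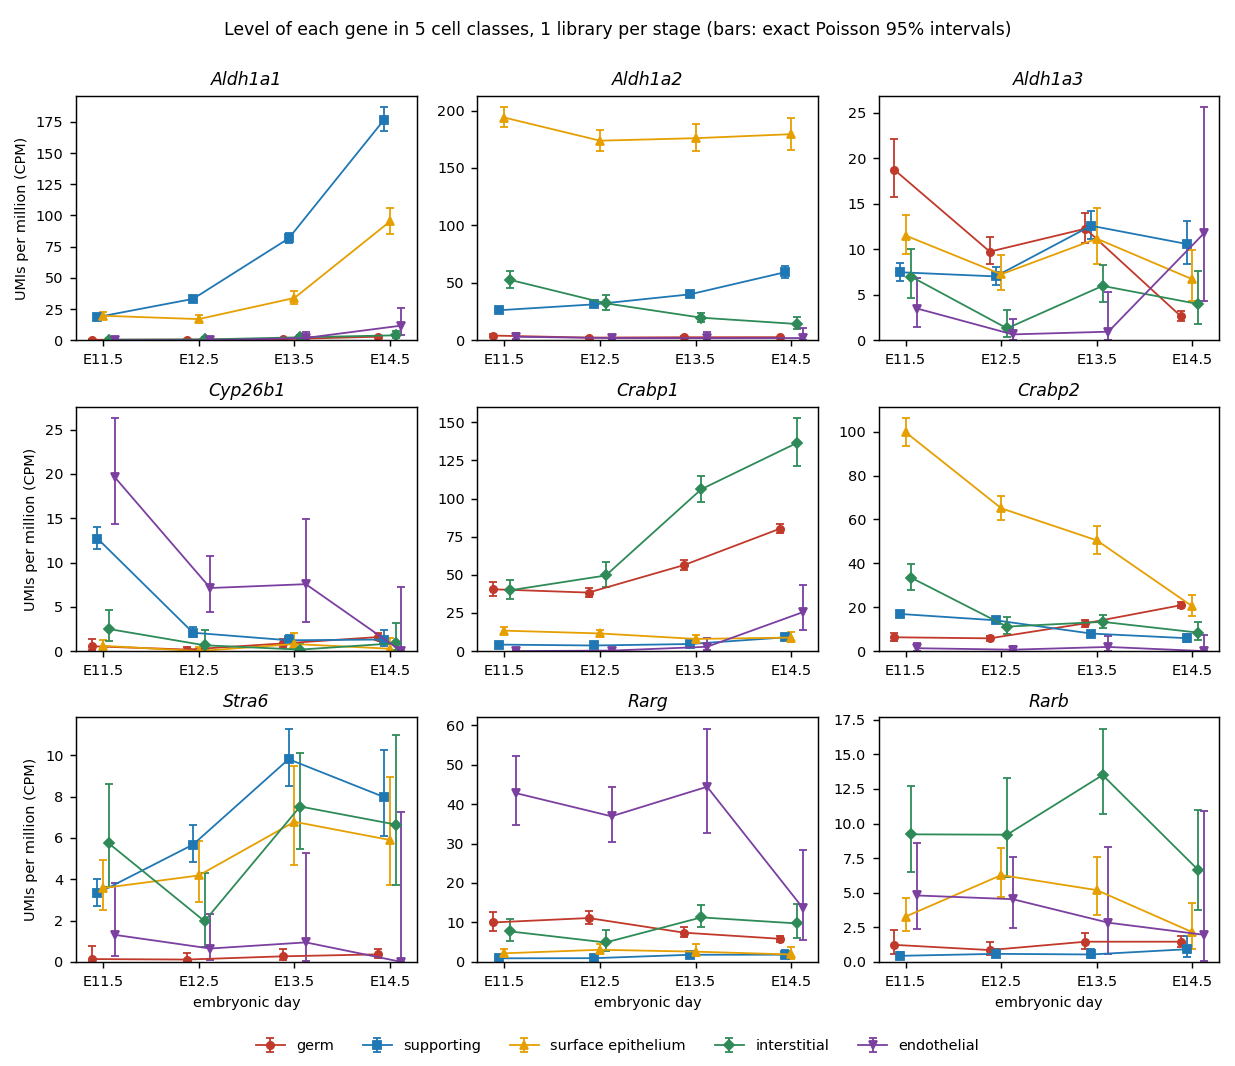
Level of each of the 9 genes (y axis, CPM of the class sum, linear scales that differ between panels) at E11.5 to E14.5 (x axis) in 5 cell classes, 1 library per stage, with exact Poisson 95% intervals as bars. Aldh1a1 climbs to 177 CPM in supporting cells, Aldh1a2 stays between 174 and 194 CPM in surface epithelium, and Crabp2 in surface epithelium goes from 99.7 to 20.4 CPM.

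Aldh1a1, a cytosolic retinal dehydrogenase, rose over the 4 stages in supporting cells and in surface epithelium. Its level in supporting cells, in stage order, was 18.6 CPM (17.2 to 20.2), 33.2 (31.1 to 35.4), 81.6 (77.7 to 85.6) and 177 (168 to 187). No interval overlapped the next, and the ratio of E14.5 to E11.5 was 9.5. In surface epithelium the level was 19.7 CPM (17.0 to 22.6), 17.0 (14.3 to 20.1), 33.9 (29.0 to 39.4) and 95.2 (85.5 to 106), a ratio of 4.84. The classes started together at E11.5, where their intervals overlapped, and from E12.5 on the supporting sum was the higher with intervals apart. The share of supporting cells with a UMI was 6.64% (5.62 to 7.77), 13.1%, 28.4% and 48.8% (44.9 to 52.7) in stage order, and without thinning it went from 14.8% to 67.7%. In surface epithelium the share went from 6.75% to 31.1% (26.2 to 36.3), or from 17.6% to 46.8% without thinning. In germ cells it was 0.277% to 1.52% and in interstitial cells 0.333% to 1.35% after thinning, at median depths of 15389 to 31050 and 9080 to 13067 UMIs per cell, and the part of free RNA in these shares was not tested.

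At E14.5 the Aldh1a1 level of supporting cells was 182 CPM in cells with a Y-linked UMI and 175 CPM in cells without one, a log2 ratio of 0.05 (-0.13 to 0.23). Interstitial cells had 0.498, 0.657, 2.39 and 3.99 CPM, and endothelial cells had 0, 0, 1.89 and 11.8 CPM, where a count of 0 allows up to 1.31 and 0.971 CPM. Of the 6 endothelial UMIs at E14.5, 5 came from 1 cell, and the level without that cell is 1.996 CPM. Averaged over the 4 libraries, the supporting mean was 77.6 CPM (SD 71.5 over the 4 stages) and the surface mean 41.4 CPM (SD 36.6).

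Aldh1a1 (chromosome 19, 20492715 to 20643465, plus strand, GRCm38) lies beside a close relative, Aldh1a7, which was among the 3 genes with the most similar pattern. Aldh1a7 was at 13.1, 20.4, 29.4 and 39.7 CPM in supporting cells and at 11.4, 11.7, 16.4 and 29.2 CPM in surface epithelium. Of the 2309 words of 50 bases in the Aldh1a1 transcript, 151 (6.54%) also occur in Aldh1a7, and 0 of the 451 in the last 500 bases do, the end that a 3′ library reads. The most similar pattern was that of Lgr5, a receptor of the Wnt pathway, with a Pearson r of 0.96 over the 20 class sums among 8696 genes, followed by Smpx (0.96) and Aldh1a7 (0.95). Lgr5 was at 6.76, 22.3, 37.9 and 56.6 CPM in supporting cells. The 20 sums share 4 libraries, so these coefficients are descriptions.

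Aldh1a2, the retinal dehydrogenase that supplies most retinoic acid in the early embryo, marked the surface epithelium at a level that hardly moved. In stage order it was at 194 CPM (185 to 203), 174 (165 to 183), 176 (164 to 188) and 179 (166 to 194), and 59.0%, 55.8%, 59.1% and 59.3% of the cells had a UMI after thinning (77.6% to 90.0% without thinning), next to 0% to 2.33% of endothelial cells. The log2 ratio of E14.5 to E11.5 was -0.11 (-0.24 to 0.02). Supporting cells had a lower level that rose, 26.1 CPM (24.4 to 28.0), 31.3 (29.2 to 33.5), 40.0 (37.3 to 42.8) and 59.3 (54.0 to 65.1), a ratio of 2.27. Interstitial cells went the other way, with 52.6 CPM (45.7 to 60.2), 32.2 (26.1 to 39.2), 19.7 (16.2 to 23.6) and 14.2 (9.70 to 20.02), a fall by 1.89 on the log2 scale. Interstitial cells were the second class after surface epithelium at E11.5 and E12.5, and supporting cells took that place at E13.5 and E14.5. Germ cells had 2.34 to 4.11 CPM and endothelial cells 1.89 to 3.05 CPM.

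The interstitial fall of Aldh1a2 depended on how mixed cells were handled. When cells that met several class rules were counted in each class, the log2 ratio was -0.78 and no longer met the rule of size. Such mixed cells held 11.47%, 15.9%, 29.5% and 35.8% of all Aldh1a2 UMIs of the libraries in stage order, next to 6.69%, 11.4%, 14.51% and 13.8% of all UMIs. The genes with the most similar pattern to Aldh1a2 over the 20 class sums were Cxadr (r of 0.98), Sema3c (0.97) and Myrf (0.97), and Myrf stood at 92.3, 103, 121 and 75.6 CPM in surface epithelium.

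Aldh1a3, the third retinal dehydrogenase, was low in all 5 classes, and single cells held many of its UMIs. In germ cells it was at 18.8 CPM (15.7 to 22.2), 9.75 (8.34 to 11.3), 12.3 (10.7 to 13.97) and 2.63 (2.14 to 3.20), a fall by 2.83 on the log2 scale over the 4 stages. Of the 137 germ cell UMIs at E11.5, 46 came from 1 cell, and the level without that cell is 12.55 CPM. Supporting cells had 7.48, 7.02, 12.6 and 10.6 CPM and surface epithelium 11.51, 7.26, 11.2 and 6.70 CPM. Across the libraries, 75 cells with at least 5 UMIs held 29.1% of the 2524 Aldh1a3 UMIs, and 29 of these were germ cells, 14 supporting cells and 12 surface epithelial cells. Such cells held a similar share for Aldh1a1 (26.0%), Aldh1a2 (25.4%) and Crabp1 (23.3%), 8.82% for Crabp2, 5.69% for Cyp26b1, 3.66% for Stra6, 0.653% for Rarg and 0% for Rarb. The highest count of Aldh1a3 was 62 UMIs in 1 cell at E13.5 that met the rules of several classes.

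Cyp26b1, the enzyme of retinoic acid breakdown, dropped in supporting cells between E11.5 and E12.5. In stage order the supporting level was 12.7 CPM (11.5004 to 14.0046), 2.07 (1.57 to 2.69), 1.22 (0.790 to 1.80) and 1.31 (0.627 to 2.40), a fall by 3.28 on the log2 scale over the 3 days. The E11.5 interval stands clear of the other 3, which overlap each other. The share of supporting cells with a UMI went from 5.62% (4.68 to 6.68) to 1.07%, 0.580% and 0.758% (0.246 to 1.76), or from 13.2% to 1.52% without thinning, next to 0% to 0.329% of surface epithelial cells after thinning. Endothelial cells had 19.6 CPM (14.3 to 26.3), 7.12 (4.46 to 10.8), 7.55 (3.26 to 14.9) and 0 CPM, where 0 UMIs in 36 cells allow up to 5.88 CPM. Endothelial cells thus had the highest level at E11.5, E12.5 and E13.5, but their sums rest on 45, 22, 8 and 0 UMIs. Of these, 8 of 22 at E12.5 and 5 of 8 at E13.5 came from 1 cell each. Without that cell the level is 4.57 and 2.87 CPM, still above the 2.07 and 1.22 CPM of supporting cells, the next class. The size of the lead at those stages thus rests in part on single cells.

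Cyp26b1 in surface epithelium was at 0 to 0.798 CPM, in interstitial cells at 0.171 to 2.49 CPM and in germ cells at 0.171 to 1.59 CPM. Supporting cells held 76.2% of the 533 Cyp26b1 UMIs of the E11.5 library while holding 39.8% of all its UMIs. At E14.5 the library held 88 Cyp26b1 UMIs, of which germ cells had 69.3% against their 53.0% of all UMIs. In supporting cells with and without a Y-linked UMI at E14.5 the levels were 2.13 and 1.04 CPM, with a log2 ratio of 1.04 (-1.23 to 3.11), so no difference was detectable at this depth.

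Stra6, the retinol transporter, was low, with 3.32 CPM (2.72 to 4.01), 5.68 (4.82 to 6.64), 9.81 (8.50 to 11.3) and 7.97 (6.10 to 10.2) in supporting cells, a ratio of 2.40 between E14.5 and E11.5. This rise was no longer past the rule of size when cells of several classes were counted. Interstitial cells had 5.73, 1.97, 7.52 and 6.65 CPM and surface epithelium 3.57, 4.18, 6.78 and 5.90 CPM, with overlapping intervals between these 3 classes in each library apart from supporting and interstitial cells at E12.5. Germ cells had 0.114 to 0.365 CPM. Stra6 (chromosome 9, 58063788 to 58153996) overlaps Gm16131 on its own strand and Ccdc33 on the other, so its counts are uncertain to the extent that reads of these genes were assigned to it.

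Within the supporting class, Stra6 and Aldh1a3 were at higher levels in cells with a UMI of Pax8. This transcription factor gene was looked at because it marks a subset of the somatic gonad and the mesonephric tubules. Cells with Pax8 numbered 356, 222, 211 and 72 in stage order, next to 1798, 1920, 1513 and 588 without. Stra6 was at 8.85 against 2.24 CPM at E11.5, 20.2 against 3.88 at E12.5, 36.9 against 5.63 at E13.5 and 41.0 against 3.01 at E14.5. The log2 ratios were 1.98 (1.39 to 2.56), 2.38 (1.89 to 2.86), 2.71 (2.30 to 3.12) and 3.77 (2.96 to 4.62), so every interval lay above 0. Over the 4 stages Stra6 changed from 8.85 to 41.0 CPM in cells with Pax8 and from 2.24 to 3.01 CPM in cells without. Aldh1a3 was also higher in the cells with Pax8 in all 4 libraries, with log2 ratios of 1.06 (0.64 to 1.47), 0.94 (0.38 to 1.46), 1.72 (1.33 to 2.10) and 2.04 (1.35 to 2.72). Most Aldh1a3 UMIs still lay in cells without Pax8: 170, 156, 171 and 50 in stage order, next to 69, 37, 87 and 31 in cells with it. At E14.5, 1 supporting cell held 17 of the 81 Aldh1a3 UMIs. How far the Aldh1a3 ratios of this split rest on single cells was not tested. Aldh1a1 was lower in the cells with Pax8 in all 4 libraries, with log2 ratios of -0.69, -0.38, -0.60 and -1.30 (-1.65 to -0.97).

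Cells with and without Pax8 were of similar depth from E11.5 to E13.5, and at E14.5 their median was 11871.5 against 9323 UMIs. Of 4 mesonephric epithelium markers, Pax2 was at 3.00 to 3.65 CPM, Cdh1 at 0 to 0.365 CPM and Epcam at 3.97 to 8.76 CPM in the cells with Pax8. In the cells without, Pax2 was at 1.65 to 2.58 CPM, Cdh1 at 0.0818 to 0.301 CPM and Epcam at 5.86 to 11.1 CPM. The Pax2 log2 ratios were 0.81, 0.50, 1.06 and 0.86 in stage order, and their intervals all held 0. Those of Epcam were -0.40, -1.18, 0.58 and -0.42, with an interval clear of 0 at E12.5 alone. Cdh16 was at 0, 0, 2.55 and 8.998 CPM in the cells with Pax8 and was higher in them at E13.5 (log2 ratio of 5.50, 2.54 to 10.997) and E14.5 (5.90, 3.05 to 11.4). Without the 15, 11, 12 and 9 cells that also had a Pax2 or Cdh16 UMI, a split made after the values were seen, the Stra6 log2 ratios were 1.99, 2.36, 2.62 and 4.18, and those of Aldh1a3 were 1.07, 1.00, 1.28 and 1.73. The part of mesonephric cells in these differences was tested no further. Of 4 supporting check markers, Gata4 had log2 ratios of -0.02 to 0.03 and its intervals all held 0, and Amhr2 differed beyond its interval at E12.5 alone (0.23). Kitl was lower in cells with Pax8 in all 4 libraries (-0.24, -0.19, -0.36 and -0.53), and Nr5a1 was lower at E11.5 (-0.39) and E13.5 (-0.26). Genes of the class rule went both ways: Irx3 was lower in cells with Pax8 in all 4 libraries (-0.45, -0.55, -0.85 and -1.32), while Wnt4 (0.43, 0.55, 0.43 and 0.63) and Runx1 (0.18, 0.20, 0.30 and 0.49) were higher, each with intervals clear of 0.

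**Figure D2:**
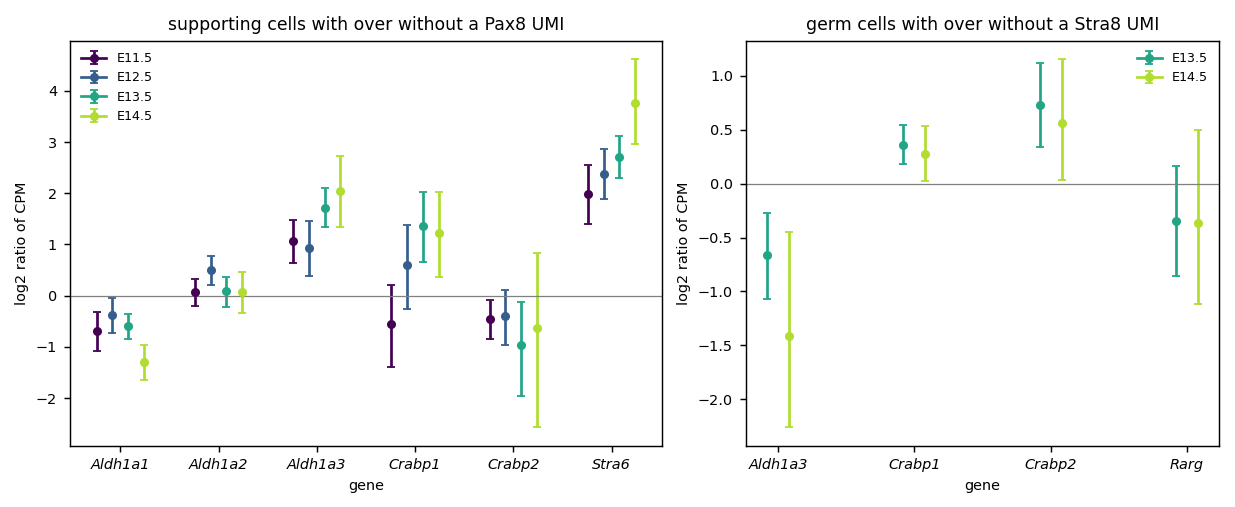
Log2 ratio of CPM (y axis) of named genes (x axis) between cells with and without a UMI of a marker in 1 library, left for Pax8 in supporting cells at 4 stages and right for Stra8 in germ cells at E13.5 and E14.5, with bars for 95% counting intervals. Stra6 and Aldh1a3 lie above 0 at all 4 stages on the left and Aldh1a1 below 0, and on the right Crabp2 lies above 0 and Aldh1a3 below 0. At E13.5, 1 germ cell held 27 of the 227 germ cell UMIs of Aldh1a3. At E14.5, 1 supporting cell held 17 of the 81 supporting cell UMIs of Aldh1a3.

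Crabp1, a cytosolic carrier of retinoic acid, was found in interstitial and germ cells. The interstitial level was 39.9 CPM (33.9 to 46.5), 49.6 (42.0 to 58.1), 106 (97.9 to 115) and 136 (122 to 153), a ratio of 3.42. The germ cell level was 40.5 CPM (36.04 to 45.4), 38.4 (35.5 to 41.4), 56.4 (53.0 to 59.9) and 80.2 (77.4 to 83.1), a ratio of 1.98 that stays just under the ratio of 2 asked for, and that passes it without the Y-linked cells (log2 ratio of 1.02) and without doublets called by Scrublet. Both classes thus had the same level at E11.5, with overlapping intervals, and the interstitial sum was higher at the 3 later stages with intervals apart. The share of cells with a UMI went from 14.7% to 33.2% (26.7 to 40.1) in interstitial cells and from 15.4% to 31.6% (29.7 to 33.5) in germ cells, from 25.3% to 44.1% and from 61.8% to 66.5% without thinning, next to 1.31% to 3.64% of supporting cells after thinning. Germ cells at E14.5 had 71.9 CPM with and 82.1 CPM without a Y-linked UMI, a log2 ratio of -0.19 (-0.33 to -0.05).

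Crabp1 in supporting cells was at 4.26, 3.67, 4.64 and 9.02 CPM, a ratio of 2.12 that median-of-ratios scaling takes just under 2 (log2 ratio of 0.98). With cells of several classes counted, that log2 ratio was 1.95 in place of 1.08. The part of free RNA in this rise was not tested. Surface epithelium had 13.4, 11.6, 7.98 and 8.85 CPM. Endothelial cells had 0, 0.324, 2.83 and 25.5 CPM, and 8 of the 13 UMIs behind the last value came from 1 cell. Among interstitial cells, those with a UMI of the proliferation genes Mki67 or Top2a had more Crabp1 at E11.5, E12.5 and E13.5 (log2 ratios of 0.52, 0.82 and 0.57) and less at E14.5 (-0.43, -0.79 to -0.06).

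Crabp2, the carrier that passes retinoic acid to the receptors, changed in opposite directions in different classes. In surface epithelium it fell from 99.7 CPM (93.7 to 106) through 65.1 (59.7 to 70.9) and 50.5 (44.4 to 57.1) to 20.4 (16.1 to 25.5), by 2.29 on the log2 scale. In interstitial cells it fell from 33.4 CPM (28.0 to 39.5) to 11.2, 13.3 and 8.42 (5.07 to 13.1), by 1.99, and in supporting cells from 16.9 CPM (15.5 to 18.4) to 14.04, 8.004 and 5.88 (4.29 to 7.87), by 1.53. In germ cells it rose, from 6.30 CPM (4.61 to 8.40) and 5.81 (4.74 to 7.06) to 12.6 (11.1 to 14.4) and 20.9 (19.5 to 22.4), a ratio of 3.32. Germ cells and surface epithelium, which were far apart at E11.5, had overlapping intervals at E14.5. The share of surface cells with a UMI fell from 35.3% (31.5 to 39.2) to 6.98% (4.52 to 10.2), and the share of germ cells went from 3.07% (1.24 to 6.22) to 9.57% (8.40 to 10.8). Without thinning these shares went from 72.2% to 18.0% and from 14.9% to 27.0%, and 0% to 1.504% of endothelial cells had a UMI after thinning.

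The supporting fall of Crabp2 was -0.92 on the log2 scale and no longer past the rule of size when cells of several classes were counted, and the germ cell rise was 2.80 when the class rule was applied after thinning. At E14.5 surface cells had 30.3 CPM with and 17.4 CPM without a Y-linked UMI, a log2 ratio of 0.80 (0.06 to 1.51), and without the Y-linked cells the fall in surface epithelium was by 2.52. Among germ cells at E13.5, Crabp2 was at 15.9 CPM in those with a UMI of Stra8 (369 cells) and at 9.61 CPM in those without (353 cells), a log2 ratio of 0.73 (0.34 to 1.12), and at E14.5 the values were 21.3 and 14.4 CPM in 2203 and 96 cells, a log2 ratio of 0.57 (0.03 to 1.15). Crabp1 differed less, with log2 ratios of 0.36 (0.18 to 0.54) and 0.28 (0.03 to 0.54), and Aldh1a3 was lower in cells with Stra8, with -0.67 and -1.41 (-2.26 to -0.45). For Aldh1a3, 27 of the 227 germ cell UMIs at E13.5 came from 1 cell, and cells without Stra8 held 13 UMIs at E14.5. How far its ratios rest on single cells was not tested. Cells with Stra8 were shallower than those without, with medians of 22795 against 25982 UMIs at E13.5 and 15323 against 19443.5 at E14.5. Stra8 itself was also counted in somatic classes at E14.5, at 5.88 to 14.51 CPM next to 931 CPM in germ cells.

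Aldh1a2 and Crabp2, which make and carry retinoic acid, were found together in 21.7%, 17.1%, 12.2% and 4.94% (2.90 to 7.79) of surface epithelial cells in stage order after thinning. The genes with the most similar pattern to Crabp2 were Hist1h4b (r of 0.91), Sept3 (0.91) and Med22 (0.90), and those to Crabp1 were Gpsm2 (0.87), Tdp1 (0.86) and Rgma (0.86). The product of the separate shares of Aldh1a2 and Crabp2 was 20.8%, 16.3%, 11.9% and 4.14%, within the interval of each measured share.

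The receptor Rarg was highest in endothelial cells from E11.5 to E13.5, where it stood apart from each other class. In stage order it was at 42.8 CPM (34.7 to 52.1), 36.9 (30.4 to 44.3), 44.4 (32.6 to 59.0) and 13.7 (5.52 to 28.3). The last value rests on 7 UMIs in 36 cells, its interval overlaps that of interstitial cells, and without 1 cell that held 3 of the UMIs it is 8.34 CPM, below the 9.75 CPM of interstitial cells. The fall by 1.64 on the log2 scale was past the rule of size. The share of endothelial cells with a UMI was 21.1%, 18.4%, 20.9% and 5.56% (0.680 to 18.7), from 47.4% to 13.9% without thinning, next to 0.464% to 0.758% of supporting cells after thinning. Germ cells had 9.99 CPM (7.83 to 12.6), 11.1 (9.61 to 12.8), 7.40 (6.22 to 8.75) and 5.86 (5.12 to 6.68), a log2 ratio of -0.77 that becomes past the rule of size under median-of-ratios scaling. At E14.5 germ cells with a Y-linked UMI had 8.52 CPM and those without 5.26 CPM, a log2 ratio of 0.70 (0.24 to 1.13). Interstitial cells had 7.72, 4.92, 11.3 and 9.75 CPM, and supporting cells and surface epithelium had 0.908 to 3.08 CPM. The genes with the most similar pattern were Stmn2 (r of 0.95), Notch1 (0.93), a receptor of arterial development, and Eng (0.92), a coreceptor of endothelial cells.

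Rarb, the receptor whose promoter is printed above, was low and highest in interstitial cells, at 9.22 CPM (6.49 to 12.7), 9.19 (6.11 to 13.3), 13.5004 (10.7 to 16.8) and 6.65 (3.72 to 10.96). Surface epithelium had 3.28, 6.28, 5.19 and 2.15 CPM, endothelial cells 4.80, 4.53, 2.83 and 1.96 CPM, germ cells 0.855 to 1.46 CPM and supporting cells 0.438 to 0.915 CPM. No class changed past the rule of size, and the interstitial log2 ratio was -0.47 (-1.44 to 0.43). Rarb (chromosome 14, 16430839 to 16819156, minus strand) overlaps Top2b on the other strand.

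Changes from E11.5 to E14.5 were called by a rule of size over all genes of a class: 50 or more UMIs over both sums, 5 CPM or more in 1 of them, and a 2-fold or larger ratio whose Poisson intervals stand apart. In supporting cells 7 of the 9 genes met the minimums and 6 were called, Aldh1a1, Aldh1a2, Crabp1 and Stra6 higher and Cyp26b1 and Crabp2 lower, where 12.7% of 10233 genes were called. In surface epithelium 2 of 6 were called, Aldh1a1 higher and Crabp2 lower, where 8.44% of 9824 genes were called. In interstitial cells 3 of 5 were called, Crabp1 higher and Aldh1a2 and Crabp2 lower, with 7.33% of 8427 genes called. In germ cells 2 of 4 were called, Crabp2 higher and Aldh1a3 lower, with 35.8% of 9587 genes called, so change was common in that class. In endothelial cells the 1 gene that met the minimums, Rarg, was called lower, with 5.47% of 5703 genes called.

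These are 14 calls in all. With a ratio of at least 4 and at least 20 CPM, 3 remained: Aldh1a1 in supporting cells, Aldh1a1 in surface epithelium and Crabp2 in surface epithelium. Without the cells that had a Y-linked UMI, an alternative chosen after the data were seen, all 14 remained and Crabp1 in germ cells was added. With cells of several classes counted there were 17 calls, of which 11 were among the 14, and the 6 gained were Aldh1a1 in germ, interstitial and endothelial cells, Aldh1a3 in surface epithelium, and Cyp26b1 and Crabp1 in endothelial cells. Median-of-ratios scaling moved the log2 ratios of germ cells by -0.36 and changed their calls from 73.6% higher to 51.9% higher over all genes; in interstitial cells the share of calls that were higher went from 48.5% to 61.9%. On that scaling the germ cell log2 ratio was 1.37 for Crabp2 and 0.62 for Crabp1.

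**Figure D3:**
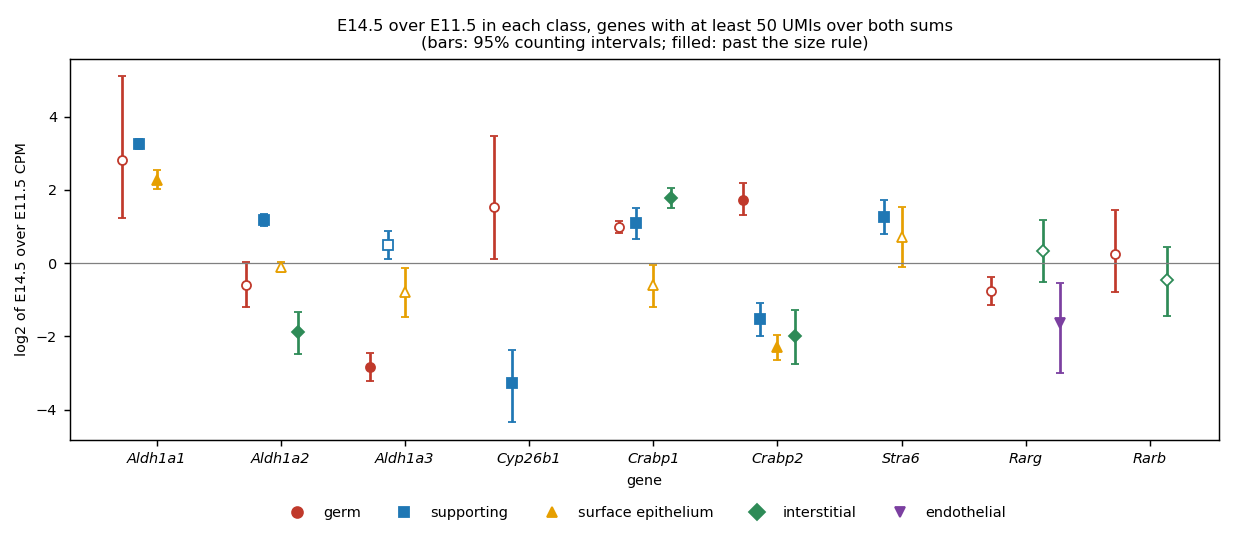
Log2 ratio of E14.5 to E11.5 CPM (y axis) for each gene (x axis) and class with at least 50 UMIs over both sums, with 95% counting intervals, filled where the rule of size was met. Crabp2 lies above 0 in germ cells (1.73) and below 0 in supporting (-1.53), surface epithelial (-2.29) and interstitial cells (-1.99).

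Differences between classes were tested with limma on log2(CPM + 5) of the 20 class sums with the library as a block, adjusted over 12631 genes in each pair of classes. On this scale differences of low genes are understated. A p-value rests on the residual spread that is left once class and library are fitted. With 1 library per stage, a class difference that changes with stage adds to that spread and cannot be told apart from spread between repeats. Aldh1a2 was higher in surface epithelium than in supporting cells by 2.13 (SE 0.25, limma adjusted p = 4.65e-06), and the next step in the order, supporting against interstitial cells, was 0.42 (adjusted p = 0.194). Aldh1a1 in supporting cells was above surface epithelium by 0.69 (0.08 to 1.30), with a limma adjusted p of 0.0775 over all genes, and surface epithelium was above endothelial cells by 2.38 (adjusted p = 2.27e-06). With all 4 libraries the Aldh1a1 difference between supporting and surface cells was thus not called. Without the E11.5 library it was 0.94 and past the threshold, and without the E14.5 library it was 0.63 and past it too. The fits without E12.5 or E13.5 are not given here.

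Crabp2 in surface epithelium was above interstitial cells by 1.52 (SE 0.35, adjusted p = 0.00374), a call that was lost without the E12.5 library (1.32, adjusted p = 0.0577) and when cells of several classes were counted (0.74, adjusted p = 0.165). Interstitial cells and germ cells did not pass the test for Crabp2 (0.36, adjusted p = 0.374), and neither did they for Crabp1 (0.47, -0.23 to 1.18, adjusted p = 0.219). For Crabp1 germ cells were above surface epithelium by 1.89 (adjusted p = 9.06e-05). Rarg in endothelial cells was above germ cells by 1.46 (adjusted p = 1.54e-05), while germ and interstitial cells differed by 0.03 (-0.44 to 0.49).

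Rarb in interstitial cells was above surface epithelium by 0.67 (SE 0.14, adjusted p = 0.00168). For Cyp26b1 the endothelial and supporting classes did not pass the test (0.48, adjusted p = 0.178), but they did without the E14.5 library (0.76, adjusted p = 0.0160) and without the E14.5 endothelial sum (0.87, adjusted p = 0.00522). Stra6 in supporting, interstitial and surface cells was within 0.19 of each other, and supporting cells were above endothelial cells by 1.00 and above germ cells by 1.13 (adjusted p = 2.85e-05 and 4.65e-06). For Aldh1a3 germ cells, supporting cells and surface epithelium lay within 0.07 of each other, with intervals that reach from -0.63 to 0.72, and germ cells were above endothelial cells by 0.82 (adjusted p = 0.0282).

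**Figure D4:**
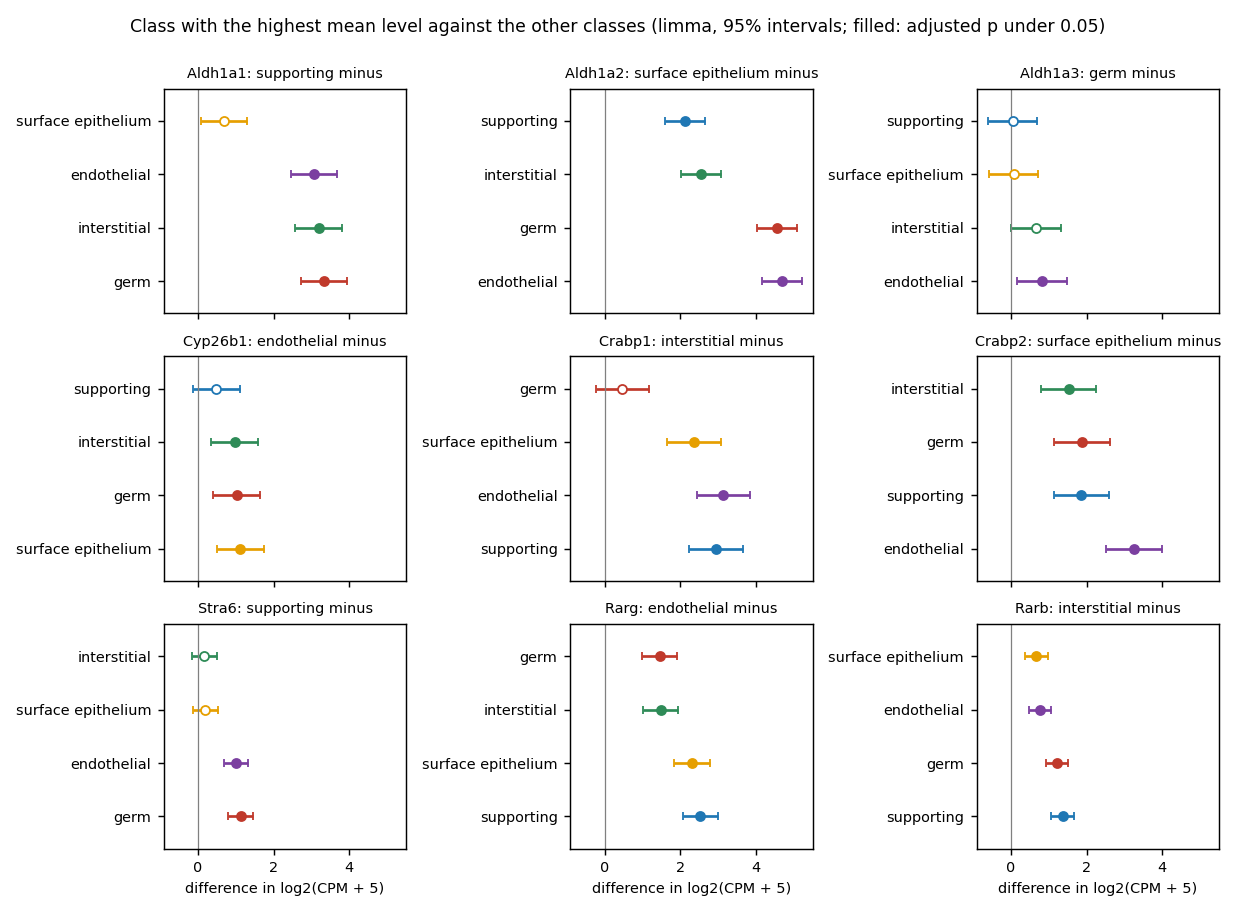
Difference in log2(CPM + 5) (x axis) between the class with the highest fitted mean and each other class (y axis) for the 9 genes, from limma over 20 class sums, with 95% intervals and filled points where the adjusted p is under 0.05. The closest class is open for Aldh1a1 (0.69), Aldh1a3 (0.04), Cyp26b1 (0.48), Crabp1 (0.47) and Stra6 (0.16) and filled for Aldh1a2, Crabp2, Rarg and Rarb.

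Over the 10 pairs of classes, 54 of 90 tests of the 9 genes were called, next to 21.9% to 69.1% of all genes by pair. Between surface epithelium and interstitial cells 6 of 9 were called, where 21.9% of all genes were, with Aldh1a1, Aldh1a2 and Crabp2 higher in surface epithelium and Crabp1, Rarg and Rarb higher in interstitial cells. Between supporting cells and surface epithelium 3 of 9 were called (34.0% of all genes), Aldh1a2, Crabp2 and Rarb, all lower in supporting cells. Between supporting and interstitial cells 4 of 9 were called (42.3%), with Aldh1a1 higher in supporting cells and Crabp1, Rarg and Rarb lower. The median size of the difference in these 3 pairs was 0.83, 0.63 and 0.62 for the 9 genes and 0.18, 0.25 and 0.30 for all genes. Over all 10 pairs the median of the 9 genes was the larger in 9, and it was the smaller between germ and interstitial cells (0.47 against 0.57).

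Germ cells differed from supporting cells in 5 of 9 (69.1% of all genes), from surface epithelium in 7 (64.0%), from interstitial cells in 3 (67.2%) and from endothelial cells in 6 (66.4%). The 3 genes that separated germ from interstitial cells, Aldh1a2, Stra6 and Rarb, were all lower in germ cells. Endothelial cells differed from supporting cells in 7 of 9 (54.1%), from surface epithelium in 6 (49.6%) and from interstitial cells in 7 (47.4%). Leaving out 1 library at a time gave 48 to 67 calls in place of 54, the highest without E14.5. The share of all genes called was not counted in those fits.

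The share of a gene's UMIs held by each class differed between libraries, as did the share of all UMIs held by each class. Germ cells held 9.09%, 22.4%, 26.6% and 53.0% of all UMIs in stage order and supporting cells 39.8%, 35.1%, 29.5% and 10.6%. For Crabp2, germ cells held 1.61%, 6.39%, 20.8% and 70.0% of its UMIs and surface epithelium 35.1%, 33.2%, 22.5% and 6.63%. For Crabp1, germ cells held 25.2%, 46.3%, 43.1% and 73.5%, and for Rarg 22.0%, 42.5%, 34.2% and 66.0% next to 29.5%, 24.8%, 11.8% and 2.05% in endothelial cells. Supporting cells held 56.0%, 69.7%, 69.4% and 47.1% of the Aldh1a1 UMIs, and surface epithelium held 40.7%, 40.1%, 28.6% and 30.7% of the Aldh1a2 UMIs while holding 5.14% to 12.54% of all UMIs. The level over whole libraries went from 59.8 to 30.1 CPM for Aldh1a2, while its level in surface epithelium stayed between 174 and 194 CPM. Its level fell in interstitial cells (52.6 to 14.2 CPM) and rose in supporting cells (26.1 to 59.3 CPM). The parts of library make-up and of changed levels in these shares were not tested.

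**Figure D5:**
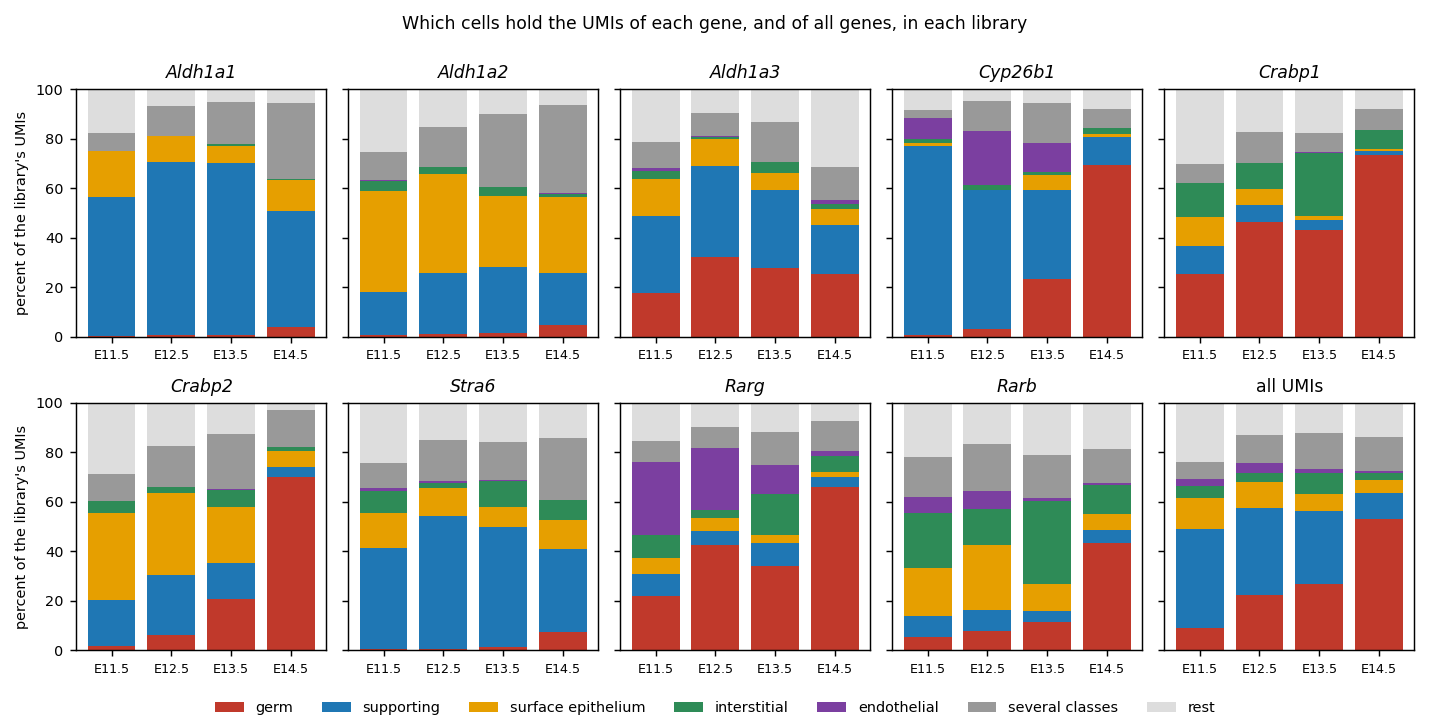
Percent of the UMIs of each gene, and of all genes in the last panel, held by each cell class (y axis) in the 4 libraries (x axis), with cells of several classes and the remaining cells in grey. Germ cells hold 70.0% of Crabp2 and 73.5% of Crabp1 at E14.5, next to 53.0% of all UMIs.

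Of 45 other genes of the pathway, 42 were in the table, and Ttr, Dhrs9 and Cyp26c1 are not analysed here. In germ cells 2 of the 3 retinol handling genes that met the minimums were called higher, Rbp4 and Dgat1. This is the class where 35.8% of all genes were called. Dgat1, which can store retinol as esters, was at 11.6, 11.1, 13.51 and 34.8 CPM. In the other 4 classes, where 5.47% to 12.7% of all genes were called, 0 of 1 or 2 such genes were called.

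Rdh10, which makes the retinal that the ALDH1A enzymes use, was called higher in germ cells (2.05, 2.28, 4.59 and 12.9 CPM) and supporting cells (6.76, 14.2, 20.1 and 19.2 CPM). It was the 1 call among the 4 and 5 retinol and retinal genes that met the minimums there. Over all genes 35.8% and 12.7% were called in these classes. Dhrs3, which turns retinal back into retinol, was higher in supporting cells than in each other class, by 0.71 on the log2(CPM + 5) scale over interstitial cells (limma adjusted p = 0.00477), with 81.2, 31.7, 37.4 and 45.5 CPM. Its drop after E11.5 did not meet the rule of size at E14.5 (log2 ratio of -0.84). Cyp1b1, which can oxidise retinol and retinal, was found in interstitial cells at 69.3, 86.3, 66.8 and 36.8 CPM.

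Of the other binding proteins and receptors, Fabp5, a fatty acid carrier that also binds retinoic acid, was called lower in surface epithelium (230, 181, 105 and 106 CPM) and in endothelial cells (357, 189, 209 and 118 CPM). Rara, the third receptor, was at 35.6, 35.4, 48.0 and 37.3 CPM in supporting cells and at 10.1, 13.3, 20.4 and 16.1 CPM in germ cells, lower in germ cells by 1.16 (adjusted p = 9.55e-08). Of 7 co-regulators that met the minimums, Ncoa1 was called higher in germ cells and Ncoa1 and Nrip1 in supporting cells. Nrip1 was also called higher in endothelial cells, where 3 met the minimums. Over all genes 35.8%, 12.7% and 5.47% were called in germ, supporting and endothelial cells. None of the 7 was called lower. Rxra, a partner of the RAR receptors, was called higher in germ cells, from 3.01 to 6.17 CPM (log2 ratio of 1.04, 0.40 to 1.74). This is just past the 2-fold ratio asked for, and median-of-ratios scaling moved germ cell log2 ratios by -0.36.

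Of 9 genes known to respond to retinoic acid, Stra8, Rec8 and Nr2f1 were called higher in germ cells, of 4 that met the minimums, in the class where 35.8% of all genes were called. Stra8 in germ cells was at 0, 1.94, 133 and 931 CPM and Rec8, a meiotic cohesin, at 2.87, 6.90, 44.3 and 150 CPM. Rec8 was also called higher in surface epithelium (10.2, 8.12, 8.97 and 24.7 CPM), and in supporting cells it was at 38.1 to 48.0 CPM in all 4 libraries. Nr2f1, an orphan nuclear receptor, was called lower in supporting cells (37.9, 10.2, 5.66 and 3.79 CPM), in surface epithelium (36.4, 29.3, 15.4 and 4.56 CPM) and in interstitial cells (91.9, 49.9, 26.3 and 17.3 CPM). Tgm2, a transglutaminase, was called higher in supporting cells and surface epithelium, where it went from 16.0 to 46.7 CPM. Somatic calls of Stra8 at E14.5 stand beside 931 CPM in germ cells of the same library, and the part of free RNA in them was not tested.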

How the data were processed

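Per the submitters' processing notes the reads were processed with Cell Ranger 2.2.0 and mm10. The values the authors deposited are on a natural log scale: the log of 1 plus UMIs per 10000 of a cell, as read from the values themselves. All 69792436 values above 0 (100%) were whole UMIs at a relative tolerance of 1e-06, so counts were recovered; the plan had assumed counts, and because the deposited unit is a log, limma was used. Cells with over 20% mitochondrial UMIs were left out (3, 1, 1 and 0 in stage order). Doublets were treated by leaving out cells of several classes, with Scrublet calls (120, 105, 95 and 94 cells) as an alternative. UMIs were summed per class and library, and limma 3.58.1 in R 4.3.3 was fitted to log2(CPM + 5) with the library as a block, with Benjamini-Hochberg adjustment over 12631 genes. With 1 library per stage, stages were compared by the rule of size alone.

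The text names the 9 genes, pathway genes with at least 20 CPM in 1 class sum (others by name where the rule of size called them), and the 3 genes most similar to each member that reaches 20 CPM. The members and lists were chosen with earlier results of these data known. On simulated data limma found 91% of 2-fold and 100% of 4-fold changes and called 9 unchanged genes of 11214 (supporting against interstitial cells). With counting error alone, the rule of size found 69% of 3-fold changes in endothelial cells and at least 95% in the other classes. In both simulations the changed genes were drawn from those at 10 CPM or more in the pooled sums. The rates therefore do not cover lower genes, such as Stra6 with at most 9.81 CPM in a class. Alternatives were other class rules, doublet removal, other scaling, other pseudocounts and filters, array weights, leaving out each library, other depths of thinning, and, chosen after the data were seen, leaving out cells with a Y-linked UMI or the E14.5 endothelial sum. Coordinates and overlaps are from GENCODE M21 on GRCm38, and promoters are from RefSeq. The values of 1 pathway gene and those of 1 further cell type are not reported here.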

Additional observations from a re-analysis of the deposited data

Results flagged for a closer look

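Crabp2 differed in direction between classes: the log2 ratio of E14.5 to E11.5 was 1.73 in germ cells, and -1.53, -2.29 and -1.99 in supporting, surface epithelial and interstitial cells, each past the rule of size. The difference between classes was not tested, since each stage has 1 library. Germ cells are also the class in which 35.8% of all genes were called.

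Aldh1a2 went in opposite directions in supporting cells (log2 ratio of 1.18) and interstitial cells (-1.89), and this difference was not tested either. The interstitial value was -0.78 with cells of several classes counted.

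A signal also lay in cells outside the 5 classes. Aldh1a3 in 30 immune cells (Ptprc with Tyrobp) at E11.5 was at 62.1 CPM (45.9 to 82.1) from 49 UMIs, above the 3 UMIs that a count of 0 allows. Of these, 38 came from 1 cell, without which the level is 15.1 CPM.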

How the results depend on the processing

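Of 306 repeats of 18 class differences between neighbours in the order of the members, 271 kept direction and side of the threshold, 13 gained a call, 2 lost one (Crabp2, above) and 20 changed sign, all in differences that were not called. With cells of several classes counted, Aldh1a2 in supporting against interstitial cells was -0.38. With 4 markers asked for, Aldh1a3 in supporting against surface cells was -0.0431 and Stra6 in interstitial against surface cells -0.0107. Without the deepest 5% of cells, Aldh1a3 was -0.0045 (germ against supporting) and -0.0367 (supporting against surface), and Rarg -0.0002 (germ against interstitial). With cell means in place of sums, Aldh1a3 in supporting against surface cells was -0.0412 and Rarg in germ against interstitial cells -0.019. Aldh1a3 was -0.0168 with a pseudocount of 1 (germ against supporting) and -0.0119 without Y-linked cells (supporting against surface), and Stra6 in supporting against interstitial cells was -0.0896 with the class rule applied after thinning.

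Leaving out 1 library at a time gave ranges of -0.0181 to 0.86 for Aldh1a2 in supporting against interstitial cells, -0.25 to 0.40 and -0.10 to 0.17 for Aldh1a3 in germ against supporting and supporting against surface cells, -0.11 to 0.80 for Crabp2 in interstitial against germ cells, -0.0715 to 0.17 for Stra6 in interstitial against surface cells and -0.20 to 0.18 for Rarg in germ against interstitial cells. The number of class calls was 48 to 67, and the share of all genes called was not counted in these fits. Of 216 repeats of 27 stage ratios, 195 moved by less than their counting interval and 0 of the called ones changed sign. The 14 calls became 3 with a ratio of at least 4 and 20 CPM, and 14 to 17 under the other settings, with 11 of the 14 shared when cells of several classes were counted and 13 or 14 otherwise. Shares of cells moved with the depth of thinning in 30 of 36 repeats. No paired analysis was possible because each stage has 1 library; the library is a block in the limma fit. Endothelial sums at E14.5 (36 cells) and genes under 10 CPM limit what can be read from this depth.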

Other observations

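Within surface epithelium, cells with a UMI of Mki67 or Top2a, genes of proliferating cells, had less Aldh1a1 than the others in each library, with log2 ratios of -0.43 (-0.87 to 0.03), -0.56 (-1.08 to -0.03), -1.05 (-1.54 to -0.57) and -0.86 (-1.18 to -0.54). Aldh1a2 in the same cells had log2 ratios of -0.08, 0.12, -0.10 and 0.00, with intervals that all held 0. In supporting cells Stra6 was lower in cells with a UMI of these genes, by 0.65, 0.78, 0.67 and 2.14 on the log2 scale, with an interval that held 0 at E11.5. Cells with such a UMI were deeper, with medians of 17029.5 against 13383 UMIs in surface epithelium at E11.5 and 10794 against 9398 at E14.5.

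Cells with UMIs of both Aldh1a1 and Cyp26b1 made up 0.0929%, 0.233%, 0.116% and 0.303% of supporting cells after thinning, where the product of the shares was 0.373%, 0.141%, 0.165% and 0.370%. At E11.5 these were 2 of 2154 cells (0.0112 to 0.335), and without thinning the share was 1.53%. The products are of thinned shares, and none was computed for the share without thinning.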
